A study of Caenorhabditis elegans with 2 samples.

Results

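PHP-3 peaks at autosomal promoters were chosen from a chromatin immunoprecipitation and sequencing (ChIP-seq) peak list of Caenorhabditis elegans larvae. A peak was kept when it lay on chromosomes I to V and its summit, the position the list names within the peak, fell near a gene start. Near meant up to 1000 bp before or 200 bp after the outermost 5′ end annotated for a protein-coding gene, with more than 300 bp to any tRNA gene. The rule kept 1102 of 3559 peaks, and 2720 of the 3559 were autosomal. The other 1618 autosomal peaks are the comparison used below, and 256 peaks met the same promoter rule on the X chromosome. Of the 1102, 233 (21.1%, exact binomial 95% interval 18.8 to 23.7) were divergent, meaning that genes on both strands held the summit in their windows, 847 stood at the promoter of 1 gene, and 22 in windows of several genes on 1 strand. The intervals given with shares hold for counting error alone.

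All worms were of 1 strain, RW12213, in which TY1, EGFP and 3xFLAG tags were inserted at the php-3 gene with CRISPR (allele st12213), so no untagged group was analysed. Whole L4 larvae, 48 hours of age after a synchronising starvation at L1, were used, and chromatin was pulled down with an antibody against GFP. The data form 1 group of 2 biological replicates, with no other genotype, stage or treatment. In whole larvae, the number of cells in which a site was bound and the binding per cell cannot be told apart. The possible control experiment that the labels name is not analysed here, and read depth is unknown.

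As background, PHP-3 is a homeodomain protein of the posterior (Abdominal-B-like) Hox group, encoded beside its paralog nob-1, and these genes act in the embryo and tail. Posterior Hox proteins bind short A/T-rich words such as TTTATG and TTTACG, often with cofactors. In C. elegans many gene starts are hidden by trans-splicing, so the annotated 5′ end can lie downstream of the true start of transcription. Neighbouring genes on opposite strands often share the sequence between them. GATA factors, which bind TGATAAG-like words, drive intestinal genes in this animal.

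Sequences at some of the summits are shown because the word content described later turns on them. Each reaches 50 bp to both sides of the summit in assembly WBcel235 (RefSeq), with no annotated exon in it, 5′ to 3′ on the strand of the gene at one-gene promoters and on the plus strand elsewhere. Capitals mark the words TGATAAG, then GACGCA or ACGCAG, then TTTATG or TTTACG, on either strand. The first 3 examples hold a Hox word or TGATAAG at some of the strongest one-gene peaks. They lie upstream of nob-1 (minus strand, chrIII:12084853-12084953), F16G10.6 (minus strand, chrII:2378755-2378855) and acp-7 (minus strand, chrIV:6432547-6432647).
nob-1: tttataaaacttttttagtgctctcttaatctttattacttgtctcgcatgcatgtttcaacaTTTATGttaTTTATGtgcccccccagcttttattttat
F16G10.6: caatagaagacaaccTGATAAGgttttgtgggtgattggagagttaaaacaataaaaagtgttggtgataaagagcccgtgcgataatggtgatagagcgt
acp-7: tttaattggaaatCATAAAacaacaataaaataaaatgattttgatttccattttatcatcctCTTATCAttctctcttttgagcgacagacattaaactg

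The next examples are strong peaks with GACGCA or ACGCAG, upstream of eel-1 (minus strand, chrIV:3050420-3050520), rpl-3 (plus strand, chrIII:3867520-3867620) and between F44E5.5 and F44E5.4 (plus strand, chrII:11759421-11759521). The window of sec-61.G and F32D8.13 (plus strand, chrV:10897327-10897427) and that of ZK856.5 (minus strand, chrV:10190363-10190463) were picked after values were seen, as strong peaks with the whole word GACGCAG.
eel-1: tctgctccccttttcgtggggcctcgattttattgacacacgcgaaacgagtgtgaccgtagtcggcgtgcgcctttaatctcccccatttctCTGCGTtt
rpl-3: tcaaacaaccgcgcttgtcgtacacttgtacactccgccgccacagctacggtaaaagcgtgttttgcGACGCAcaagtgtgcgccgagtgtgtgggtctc
F44E5.5 and F44E5.4: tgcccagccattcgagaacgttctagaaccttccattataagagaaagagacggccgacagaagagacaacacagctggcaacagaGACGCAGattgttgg
sec-61.G and F32D8.13: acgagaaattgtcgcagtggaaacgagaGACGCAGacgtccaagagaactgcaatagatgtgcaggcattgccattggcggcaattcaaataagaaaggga
ZK856.5: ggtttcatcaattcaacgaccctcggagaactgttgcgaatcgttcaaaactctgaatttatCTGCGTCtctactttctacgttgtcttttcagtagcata

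The last examples are strong divergent peaks that hold none of these words. They lie between rib-2 and tbb-1 (plus strand, chrIII:10742569-10742669), K11H12.8 and rpl-15 (plus strand, chrIV:654882-654982), and Y22D7AL.10 and hsp-60 (plus strand, chrIII:1619079-1619179).
rib-2 and tbb-1: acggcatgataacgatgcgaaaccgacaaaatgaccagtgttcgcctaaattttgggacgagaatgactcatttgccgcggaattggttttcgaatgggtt
K11H12.8 and rpl-15: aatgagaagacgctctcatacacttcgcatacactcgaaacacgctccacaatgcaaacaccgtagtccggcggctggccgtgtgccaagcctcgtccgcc
Y22D7AL.10 and hsp-60: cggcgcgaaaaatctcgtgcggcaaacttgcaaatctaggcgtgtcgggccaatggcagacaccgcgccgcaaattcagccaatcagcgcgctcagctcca

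The first question was how well each replicate carried these peaks. The signal value is the authors' own number for a peak's height. Over the 1102 peaks its median was 125 (quartiles 97.6 and 176, lowest 2.09, highest 935), against a median of 115 at the other autosomal peaks. At the same peaks the median was 61.7 in replicate 1 and 69.0 in replicate 2, against 57.1 and 63.7 at the other autosomal peaks. Each replicate thus gave promoter peaks slightly more signal. The difference in medians was 10.1 in the series-wide list, 8.56 in replicate 2's own list (without replicate 1) and 4.78 in replicate 1's own list (without replicate 2). The replicates' lists run on a lower scale. Of the 1102 peaks, 415 (37.7%, interval 34.8 to 40.6) lay in the own thresholded lists of both replicates, against 32.7% of the other autosomal peaks and 42.2% of the X promoter peaks. A further 117 were found in the list of replicate 1 but not of replicate 2, 190 the other way round, and 380 in no own list.

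**Figure D1:**
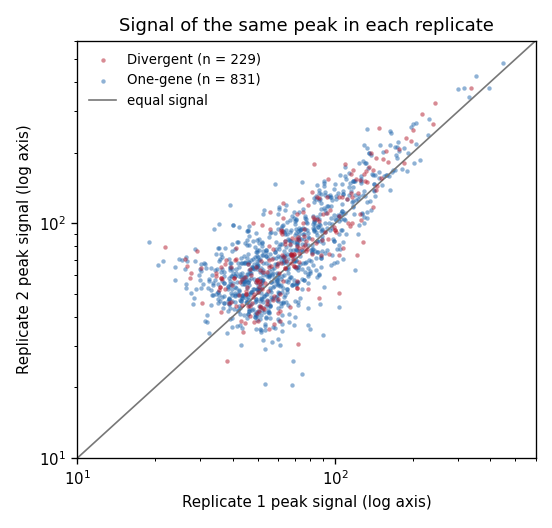
Signal of each autosomal promoter peak in replicate 1 (x) and replicate 2 (y), both on log axes, for divergent and one-gene promoters. Most points lie above the line of equal signal, and the kinds of promoter share the same cloud.

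Across the 1081 peaks with a value in both replicates, the replicates' signals correlated with a rho of 0.69 (Spearman) and, as log2 values, an r of 0.75 (Pearson), a description over peaks that share their libraries and had already passed a limit on agreement. Replicate 2 was higher at 742 of the 1081. The share in both own lists followed the series-wide signal closely. In quintiles of signal it was 96.8% in the highest, 70.9% in the next and 15% in the middle one. Below that it was 0.909% and, in the lowest quintile, 4.52%. The 4.52% belongs to the lowest signals, where 42 peaks under a signal of 50 all overlapped another peak of the list, so their replicate values may be those of the neighbour. In all, 91 of the 1102 overlapped another peak, and 969 (87.9%) overlapped a peak of the authors' conservative list. Single peaks in the lower quintiles therefore rest on the series-wide list and seldom on each replicate alone.

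Summits clustered close upstream of gene starts. The median summit lay 200 bp upstream of the nearest 5′ end (quartiles 459 and 70.5 bp). Per 100 bp of window there were 50.2 summits from 1000 to 500 bp upstream, 87.6 from 500 to 250 bp, 204 from 250 to 100 bp and 179 in the last 100 bp before the 5′ end. Downstream, from 0 to 200 bp, the density was 73.1 per 100 bp. The 147 downstream summits had a median signal of 106, and 25.2% of them lay in both replicates' lists. The 306 summits from 250 to 100 bp upstream had a median signal of 141, and 42.8% lay in both. Peaks right at the upstream limit went on into the next positions: the outermost peak kept, 998 bp upstream of Y53H1A.2, had a signal of 104, and the nearest one dropped, 1003 bp upstream of mml-1, had 93.7. At the downstream limit the last peak kept, 198 bp inside T09F3.7, had 85.0, and the nearest one dropped, 205 bp inside snrp-200, had 107.

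**Figure D2:**
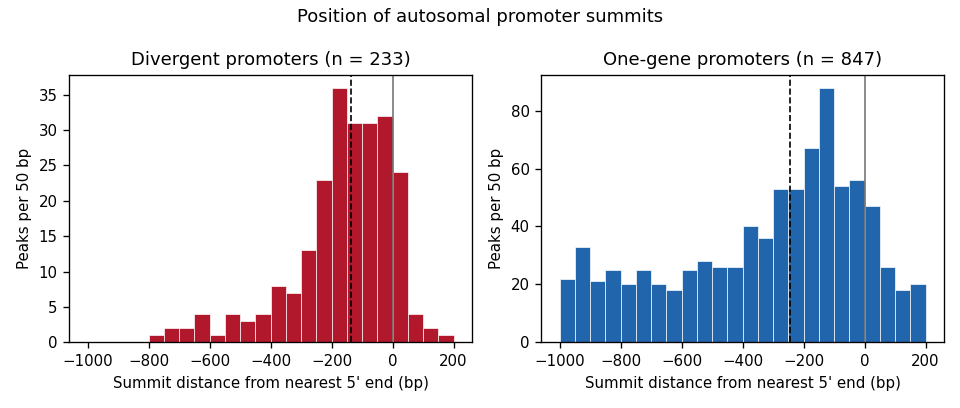
Histograms of the distance from summit to nearest 5′ end (x, bp, negative upstream) in divergent (left) and one-gene (right) promoters, as peaks per 50 bp (y). The solid line is the 5′ end and the dashed line the median, 135 bp upstream in divergent and 244 bp upstream in one-gene promoters.

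Most of the summits, 846 of 1102 (76.8%), lay between genes, and these had a median signal of 133. Another 78 lay in a 5′ UTR, 79 in an intron and 28 in a 3′ UTR, with median signals of 128, 109.6 and 106. The 71 in coding exons had the lowest median, 90.6. For 115 peaks the summit lay inside another protein-coding gene. Non-coding genes stood within 300 bp of some summits: 25 were near a snoRNA gene, 14 near an snRNA gene, 6 near a miRNA gene and 7 near a lincRNA gene. These peaks were kept, and whether they belong to the protein-coding or the non-coding gene was not tested. The tRNA limit had removed 29 peaks that were otherwise in a window. Near it stood cpr-9, with a kept peak 748 bp from a tRNA gene (signal 109) and a dropped one 206 bp away (44.4).

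The windows covered 22.2% of the autosomes and held 60.1 peaks per Mb, against 25.2 per Mb in the other autosomal sequence. Within the windows, the divergent stretches held 118 peaks per Mb and the one-gene stretches 52.4 per Mb. Divergent stretches made up 10.7% of window sequence and 21.1% of the peaks. Each position there lies in the windows of genes on both strands, and in a one-gene stretch in that of a single gene. The densities are per sequence and not per gene, and a preference for divergent promoters was not tested. Each of the 5 autosomes carried members, from 166 on chromosome I to 294 on chromosome V. The share of genes with a peak ran from 6.71% on V to 8.56% on III. By position, 459 of the 1102 (41.7%, interval 38.7 to 44.6) lay in the middle of 3 equal parts of their chromosome, against 38.1% of autosomal protein-coding 5′ ends.

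Divergent summits lay closer to gene starts than one-gene summits did. They lay a median of 135 bp from the nearest 5′ end, against 244 bp in one-gene promoters. A shared stretch lies close to a gene on each side, so part of this follows from the rule. All 233 pairs were head to head, and in 202 the summit lay between the 5′ ends. The gap between those ends had a median of 576 bp (quartiles 369 and 915, from 50 to 1697 bp). The nearer end was a median of 164.5 bp away and the farther 438 bp. In 113 of the 202 (55.9%, interval 48.8 to 62.9) the summit was closer to the centre of the gap than to either end. Summits spread evenly over the gap would give 50%, which lies inside this interval, and a preference for the centre was not tested.

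Median signal was 132 at divergent and 123 at one-gene promoters, 63.9 and 60.5 in replicate 1, and 72.2 and 68.0 in replicate 2. The divergent median was 1.07 times the one-gene median in the series-wide list, 1.06 times in replicate 1 and 1.06 times in replicate 2 at these peaks. Over the peaks of each own list, the difference of 9.18 was 4.86 in replicate 2's (without replicate 1) and 2.14 in replicate 1's (without replicate 2), on their lower scale. Of divergent peaks 42.5% (interval 36.1 to 49.1) lay in both own lists, and of one-gene peaks 36.6% (33.3 to 39.9); these intervals overlap.

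The strongest one-gene peaks stood at genes of unlike function. T24E12.13 had the highest signal, 935 (449 in replicate 1 and 481 in replicate 2), with the summit 734 bp upstream. The peak at nob-1, the posterior Hox paralog of php-3, had 803 (350.5 and 425) at 587 bp upstream, and its window holds TTTATG. F16G10.6 had 751 (316 and 377), at 954 bp upstream. Next came eel-1, which encodes a HECT-type ubiquitin ligase, with 721 (397 and 379) at 366 bp upstream. At rpl-3, which encodes a ribosomal protein, it was 661 (330.1 and 346) at 284 bp upstream. The gene rpa-2, for a subunit of the single-stranded DNA binding protein RPA, had 659.6 (299.9 and 373) at 637 bp upstream. At all 6, each replicate's own signal was far above its median over the 1102 peaks. This follows from the choice of the strongest peaks that lie in both own lists.

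The other 6 of the 12 strongest one-gene peaks had signals from 422 to 503. They stood at lys-8, a lysozyme gene expressed in the intestine (503), the ribosomal gene rpl-35 (482), mog-4, which encodes an RNA helicase of the germline sex switch (481), the fatty acid amide hydrolase gene faah-2 (472), acp-7 (440.0) and tif-1A, for an RNA polymerase I initiation factor (422). All 12 lay between genes and overlapped the conservative list. Of the 12, TGATAAG was in the windows of T24E12.13, F16G10.6 and acp-7, and GACGCA or ACGCAG in those of eel-1, rpl-3 and rpa-2. The Hox words TTTATG or TTTACG were in the windows of T24E12.13, nob-1, faah-2 and acp-7.

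The 8 strongest divergent peaks are given with both genes of each pair. The peak between F44E5.4 and F44E5.5, a pair of Hsp70-family genes, had a signal of 714 (335 in replicate 1 and 376 in replicate 2), with summit 160 and 191 bp upstream of the pair. These genes are close copies of each other, so reads there may be hard to place. The peak between tbb-1, a β-tubulin gene, and rib-2, a heparan sulfate synthesis gene, had 579.7 (243 and 327), at 187 and 191 bp upstream. At cct-8, a chaperonin subunit gene, and Y55F3AR.2 it was 506 (239 and 265). At tasp-1, for a taspase-like protease, and K01G5.10 it was 502 (217 and 292). The ribosomal genes followed, with 455 at rpl-20 and Y17G9B.5 and 417 at rpl-15 and K11H12.8. The mitochondrial chaperonin gene hsp-60, shared with Y22D7AL.10, had 414, and nlt-1 with ZK892.3 had 398. At each of the 8, replicate 2 had the higher value. A shared peak does not tell which gene of a pair it belongs to.

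GC content was higher at the summits than beside them. In windows of 50 bp to both sides it averaged 41.7% ± 9.66 at summits (SD over 1102 peaks) and 35.4% ± 8.70 in 2196 windows centred 400 bp to each side. The summits of other autosomal peaks averaged 42.8%, and windows 200 bp upstream of all 17242 autosomal protein-coding genes 34.0%. Divergent summits averaged 45.6% ± 9.09 and one-gene summits 40.6% ± 9.51. Over 25 bp steps, divergent promoters reached 47.5% at the summit, with 37.2% at 400 bp to each side. One-gene promoters reached 40.4% at the summit, with 34.4% and 35.7% at 400 bp upstream and downstream. Recovery and sequencing of fragments can vary with GC content, and the input library that would show this is not analysed here, so its part was not tested.

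**Figure D3:**
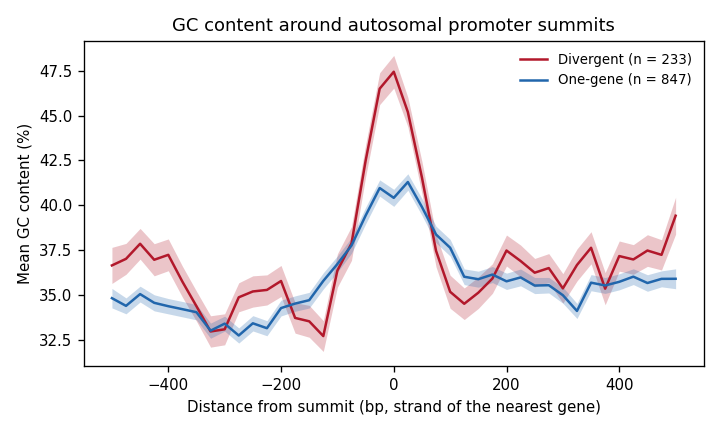
Mean GC content (y, %) in 25 bp steps by distance from the summit (x, bp, on the strand of the nearest gene) at divergent and one-gene promoters, with bands of 1 standard error over peaks. The rise at divergent summits, to 47.5%, is narrow, and the one at one-gene summits, to about 41%, is broader.

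The words known for posterior Hox proteins were only weakly concentrated. Any of TTTATG or TTTATT or TTTACG or TTTACT, on either strand, was in 41.3% of summit windows (interval 38.4 to 44.3), against 38.6% of flanks (36.5 to 40.6), 34.9% of other autosomal summits and 43.1% of all promoters. The words that end in G stood apart. TTTATG or TTTACG was in 20.1% of summit windows (17.8 to 22.6), against 13.1% of flanks (11.7 to 14.6), 18.2% of other autosomal summits (16.3 to 20.1) and 14.1% of all promoters. The intervals at promoter and other summits overlap. The word TTTATT, which makes up most of the 4-word set, was in 24.4% of summits and 24.5% of flanks. TTTATGA or TTTATGG was in 8.44% of summits and 4.87% of flanks. These are A/T-rich words and summits are richer in G and C, which moves with the comparison. Among windows of 35 to 45% GC only, TTTATG or TTTACG was in 21.5% of summits (17.6 to 25.9) and 11.6% of flanks (9.36 to 14.1), and the 4-word set in 43.5% and 31.0%.

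TGATAAG was far more common at summits than at flanks. The word was picked by a ranking of words on this contrast, given below, so the contrast follows from the choice. It lay in 177 of 1102 summit windows (16.1%, interval 13.9 to 18.4), against 36 of 2196 flanks (1.64%, 1.15 to 2.26) and 2.52% of all promoters. The shorter GATA words TGATAA or AGATAA, of which TGATAA is part of TGATAAG, were in 36.5% of summits and 14.3% of flanks. In each replicate's own list the share of summits with TGATAAG was 20.4% against 1.34% of flanks in replicate 1, and 18.3% against 1.79% in replicate 2. These lists come from the same libraries and give no separate check of the word. Among windows of 35 to 45% GC it was 18.5% of summits and 1.75% of flanks. TGATAAG was also frequent at the other autosomal summits (13.4%, 11.8 to 15.2), so it is not particular to promoters.

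A C/G-rich word formed the other group. GACGCA or ACGCAG, which overlap in GACGCAG, lay in 160 of 1102 summit windows (14.5%, interval 12.5 to 16.7), against 2.96% of flanks (2.29 to 3.76), 10.5% of other autosomal summits (9.05 to 12.1) and 4.48% of all promoters. The whole word GACGCAG was in 6.90% of summits and 0.683% of flanks. Both TGATAAG and GACGCAG were found by ranking words in these windows: of 765 words of 7 letters present at 25 or more summits, TGACGCA had place 1, GACGCAG place 3 and TGATAAG place 4 by the share at summits over flanks, with 0.5 added to each count in flanks. Their shares are therefore a description of how they were chosen. GACGCA or ACGCAG was in 16.8% of summits against 2.85% of flanks in replicate 1's own list, and in 14.7% against 2.33% in replicate 2's.

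**Figure D4:**
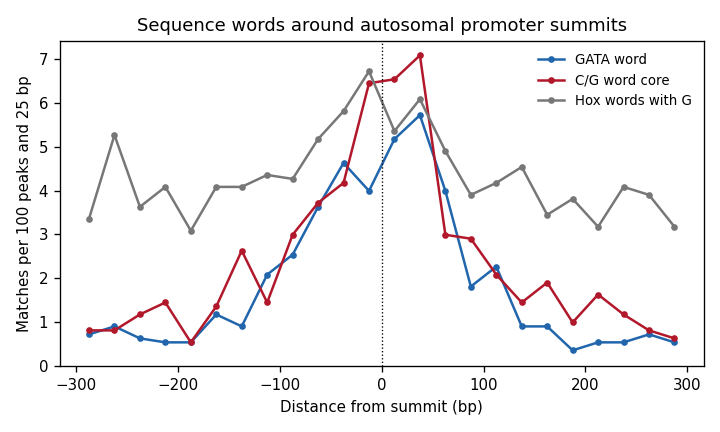
Matches per 100 peaks in steps of 25 bp (y) by distance from the summit (x, bp) for the word TGATAAG, the C/G word core (GACGCA or ACGCAG) and the Hox words that end in G (TTTATG or TTTACG). The first of these reached 5.72 and the C/G word 7.08 near the summit and stayed under 1.5 beyond 200 bp in most steps, while the Hox words had a high base level and a shallow rise to 6.72. TGATAAG and the C/G word were chosen for their frequency at these summits.

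Both words were most frequent close to the summits. They had been chosen for frequency within 50 bp of these summits against flanks, so a rise there follows from the choice. TGATAAG reached 5.72 matches per 100 peaks and 25 bp from 25 to 50 bp, against a mean of 0.647 over the 8 steps that lie 200 to 300 bp from the summit (0.544 to 0.907). GACGCA or ACGCAG reached 7.08, against 1.07 (0.635 to 1.63). TTTATG or TTTACG reached 6.72, against 3.83 (3.18 to 5.26). These Hox words did not come from that ranking, so the size of their rise cannot be set fairly against the others. Among other motifs, CACGTG (E-box) was in 5.44% of summits, 6.18% of other autosomal summits, 1.64% of flanks and 1.54% of all promoters. GAGAGA was in 12.3% of summits, 14% of other autosomal summits and 5.10% of flanks. GGGCGG was in 4.45%, 4.88% and 1.23% of the same windows, and in 9.44% of divergent summits against 3.07% of one-gene summits. A run of 8 T was rarer at summits, 5.72% against 11.7% of flanks. TATAAA was alike, 11.1% and 11.4%. In windows of 35 to 45% GC, GGGCGG was in 2.78% of summits and 1.62% of flanks, and the T run in 4.30% and 5.79%. TATAAA was there in 10.9% and 6.999%. For these words the intervals at summits and flanks overlap in that band. CACGTG (8.61% and 2.42%) and GAGAGA (12.4% and 5.38%) kept intervals apart there. The part that GC content has in the divergent share of GGGCGG was not tested. Word matches describe letters only and show no bound protein.

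Peaks with TGATAAG and peaks with the C/G word were mostly different peaks. Of the 1102 peaks, 166 had TGATAAG alone, 149 had GACGCA or ACGCAG alone, 11 had both and 776 neither. Median signal was 138 with TGATAAG alone, 144 with the C/G word alone and 118 with neither. The replicate 1 medians were 66.5, 69.8 and 59.1, and the replicate 2 medians 72.2, 74.2 and 67.4, in the same order. Of the TGATAAG group 46.4% (interval 38.6 to 54.3) lay in both own lists, of the C/G group 44.3% (36.2 to 52.7), and of the rest 34.3% (30.9 to 37.7). The intervals of the C/G group and the rest overlap. Divergent promoters made up 12.7% of the TGATAAG group (interval 8.0 to 18.7), 33.6% of the C/G group (26.0 to 41.7) and 20.9% of the rest (18.1 to 23.9). Here the intervals of the TGATAAG group and the rest overlap. Mean GC was 34.9% in the TGATAAG group and 47.6% in the C/G group, and the part that base composition has in the divergent share was not tested.

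Read by kind of promoter, TGATAAG was in 9.01% of divergent summits (interval 5.67 to 13.4) and 18.4% of one-gene summits (15.9 to 21.2). GACGCA or ACGCAG was in 21.5% of divergent summits (16.4 to 27.3) and 12.5% of one-gene summits (10.4 to 14.9). By signal, TGATAAG was in 7.69% of the lowest quintile of peaks and in 15%, 20.9%, 17.3% and 19.5% of the next ones up. GACGCA or ACGCAG was in 9.05%, 15%, 10.9%, 20.9% and 16.7%. TTTATG or TTTACG was in 14.5% of the lowest quintile and 23.1% of the highest. Mean GC over the quintiles ran from 41.0% to 42.4%. By distance, TGATAAG was most frequent in the last 100 bp before the 5′ end (22.9%), and GACGCA or ACGCAG from 500 to 250 bp upstream (19.6%).

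The peaks marked 1280 of 17242 autosomal protein-coding genes, which is 7.42% (interval 7.04 to 7.83), the share against which gene classes are read. In replicate 2's own list (without replicate 1) the share was 4.33%, and in replicate 1's own list (without replicate 2) 3.86%. Of the 1280, 1187 had 1 peak and 93 had 2. Of 9552 genes with a class name 8.69% were marked, and of 7690 with a sequence name only 5.85%. Genes were grouped into 45 classes by symbol, and 28 classes had a share above 7.42%. Many classes are small, members can share a peak, and the classes were drawn up with earlier results known, so the shares are descriptions. A shared peak counts for each of its genes, also where the neighbour is not named below. Among genes named below, iff-2, eef-2, kars-1, dnj-13, nhr-68 and ugt-41 stand on divergent peaks. The peak of tbg-1 is shared with rpac-19.

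**Figure D5:**
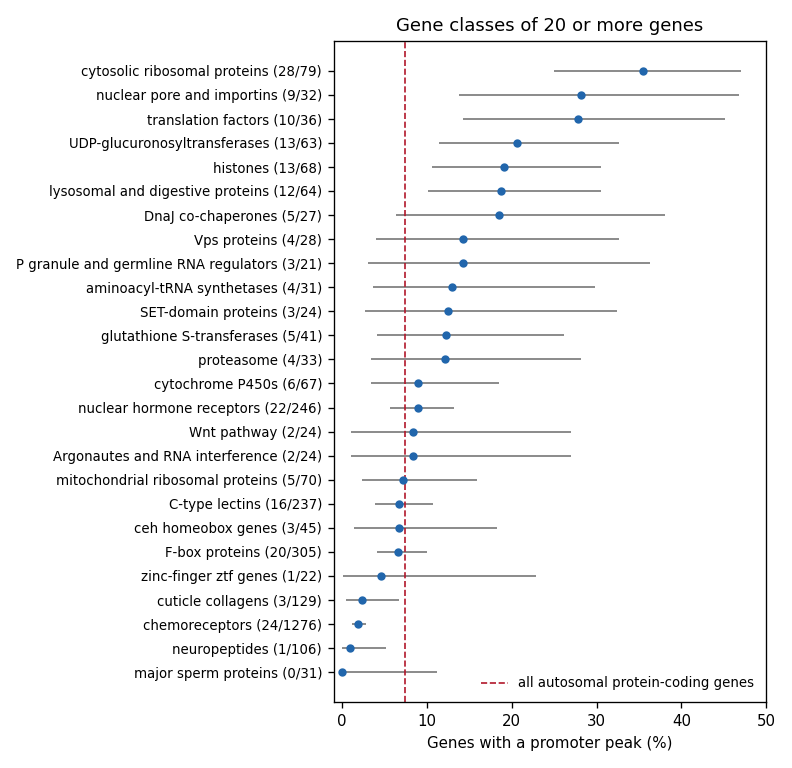
Share of genes with a promoter peak (x, %) in each class of 20 or more genes (y, with marked over all genes), with exact binomial 95% intervals. The dashed line is the share of all autosomal protein-coding genes, 7.42%, and cytosolic ribosomal proteins stand highest at 35.4%.

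Among genes of translation, cytosolic ribosomal proteins and translation factors had high shares. Cytosolic ribosomal protein genes were marked in 28 of 79 cases (35.4%, interval 25 to 47), with a median signal of 168 against 130.0 over all marked genes. Their 30 peaks included 17 divergent ones and 15 in both replicates' lists. TGATAAG was in 0 of the 30 windows and GACGCA or ACGCAG in 10, and mean GC was 50.4%. Translation factors were marked in 10 of 36 cases (27.8%, 14.2 to 45.2), among them iff-2, an eIF5A gene (321), eif-3.C (209.7) and eef-2, the elongation factor gene (204). Mitochondrial ribosomal proteins, at 5 of 70 (7.14%), were near the background, with a median signal of 107, and had 1 marked without replicate 1. Aminoacyl-tRNA synthetases, which charge tRNAs, were marked in 4 of 31 cases (12.9%, 3.63 to 29.8), led by kars-1 (204). Their interval includes the background. Over the alternative settings the cytosolic ribosomal share ran from 21.5% to 38.0%.

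Folding genes form small classes with shares above the background, and genes of protein turnover are given after them. All 3 marked CCT chaperonin genes, of 8 (37.5%, interval 8.52 to 75.5), were at divergent promoters: cct-8 (506), cct-1 (351) and cct-7 (114). The peak of cct-1 is shared with mig-5, a Dishevelled gene of the Wnt pathway. Hsp chaperones had 5 of 19 marked (26.3%, interval 9.15 to 51.2), with hsp-60 (414), hsp-110 (132, shared with the proteasome gene rpn-3) and hsp-1, the constitutive Hsp70 gene (128). DnaJ co-chaperones had 5 of 27 (18.5%, 6.3 to 38.1), led by dnj-13 (334), and this interval includes the background. Proteasome genes had 4 of 33 (12.1%, 3.4 to 28.2), and none of their 4 peaks held either word. Without replicate 1 it was 1 of 33 (3.03%), below the share of all genes in that list (4.33%). F-box genes, a large family of ubiquitin ligase adaptors, had 20 of 305 (6.56%, 4.05 to 9.95), near the background, with fbxa-156 the strongest (357).

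Nuclear and cytoskeletal genes varied. Nuclear pore and importin genes had 9 of 32 marked (28.1%, interval 13.7 to 46.7), led by imb-3 (195), and 2 of their 9 peaks lay in both replicates' lists. Without replicate 1 the share was 3 of 32 (9.38%), and without replicate 2 it was 4 of 32 (12.5%). SWI/SNF chromatin remodelling genes had 3 of 7, led by swsn-7 (175), and 1 of 7 in either replicate's own list. Histone genes had 13 of 68 (19.1%, 10.6 to 30.5), but 1 of their 12 peaks lay in both replicates' lists, and near-identical copies may share reads. Their share ran from 1.47% to 27.9% over the alternative settings, and without replicate 2 it was 1.47%, against 3.86% of all genes. Tubulin genes had 4 of 10, with tbb-1 (579.7), tba-2 (231) and tbg-1, for γ-tubulin (150.3). SR and Sm splicing genes had 3 of 15 (20%, 4.33 to 48.1, which includes the background), where rsp-1 and rsp-2 share 1 peak of 172. Actins (4 genes), MCM and ORC replication genes (13), complex I genes (6), T-box genes (16), major sperm protein genes (31) and the autosomal vitellogenin gene (1) had 0 marked. For the 31 sperm protein genes the interval reached 11.2%, which includes the background.

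TGATAAG was frequent at the peaks of digestive genes and of C-type lectin genes, a family linked to defence. Lysosomal and digestive genes were marked in 12 of 64 cases (18.8%, interval 10.1 to 30.5), with a median signal of 168. The strongest were lys-8 (503), the aspartyl protease gene asp-9 (355) and the saposin-like gene spp-8 (328). Of these named genes, spp-8 alone had TGATAAG in its window. Over the 12 windows of the class, TGATAAG was in 5 and the C/G word in 0. This class was added after the values were seen. C-type lectin genes had 16 of 237 (6.75%, 3.91 to 10.7), near the background, led by clec-48 (317) and clec-78 (199). TGATAAG was in 8 of their 14 windows and the C/G word in 0, against 16.1% and 14.5% of all 1102. UDP-glucuronosyltransferases, which conjugate toxins, had 13 of 63 (20.6%, 11.5 to 32.7), led by ugt-41 (269.8), with each word in 3 of 13 windows. Without replicate 2 their share was 4 of 63 (6.35%), and without replicate 1 it was 7 of 63 (11.1%). Cytochrome P450s had 6 of 67 (8.96%, 3.36 to 18.5), and glutathione S-transferases 5 of 41 (12.2%, 4.08 to 26.2), led by gst-22 (225). Both intervals include the background.

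Most regulator classes named here stood near the background or under it. Nuclear hormone receptor genes had 22 of 246 marked (8.94%, interval 5.69 to 13.2), led by nhr-68 (381) and nhr-99 (304). Their share was above that of all genes in all 11 alternative settings. These settings reuse the same 2 replicates, and the interval includes the share of all genes. Homeobox genes of the ceh series had 3 of 45, each at a divergent promoter, as ceh-99 (313) with srh-70, ceh-38 (196) with malt-1, and ceh-19 (168) with csr-1 and frpr-10. Of 5 GATA factor genes, elt-7 alone was marked (20%, interval 0.505 to 71.6). Its peak, with a signal of 83.7, is shared with C18G1.9 and is in neither replicate's own list. The G1 cyclin gene cyd-1 had a peak of 304 with TGATAAG. In the Wnt pathway class mig-5 (351) and the Frizzled receptor gene mig-1 (190.0) were marked, of 24, and 1 of 24 without replicate 1.

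Receptor and peptide genes of neurons, and collagen genes of the cuticle, had low shares. Chemoreceptor genes were marked in 24 of 1276 cases (1.88%, interval 1.21 to 2.79), neuropeptide genes in 1 of 106 (0.943%, 0.0239 to 5.14), which was nlp-12 (84.9), and cuticle collagen genes in 3 of 129 (2.33%, 0.482 to 6.65), led by col-38 (139). The col-38 peak is divergent and shared with the ribosomal gene rpl-5. The chemoreceptor peaks included srz-62 (399.5) and srw-86 (377), and 14 of their 26 peaks were divergent, so the neighbour shares them. In all alternative settings tried the chemoreceptor share stayed between 0.784% and 2.90% and the collagen share between 0% and 3.88%.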

How the data were processed

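Peaks were measured by ChIP-seq in 2 biological replicates, which form 1 group. The deposited lists are on assembly ce11, and the labels give sonicated fragments of 200 to 800 bp. Which aligner and peak caller made them is not given in the sources used. The authors deposited for each peak a signal value, the peak's height, and a score from its irreproducible discovery rate (IDR, disagreement between paired lists), 830 at the lowest in the series-wide list. The summit offset, another deposited number, gave the summit. The members come from the larger series-wide thresholded list of 3559 peaks. The conservative list held 3495, and the replicates' own thresholded lists 1728 and 2000.

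Genes came from Ensembl release 115 and sequence from the RefSeq genome of WBcel235, which has ce11 coordinates, and no peak ended beyond its chromosome. A replicate's signal at a peak is the highest of any overlapping peak in its ranked list (1 bp of overlap). Motif windows reached 50 bp to both sides of a summit, and flanks that met a summit window were left out. The other autosomal peaks include those dropped for a tRNA gene. No test between conditions was possible with 1 group, so shares have exact (Clopper-Pearson) 95% intervals for counting error only. Read depth is unknown.

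The members, gene classes, motifs and rules were chosen with earlier results of these data known. The rule for named genes took the 12 strongest one-gene and 8 strongest divergent peaks in both own lists, up to 3 marked members per class by signal, and peaks beside each limit; other named genes were chosen after their values were seen. After values were seen, patterns for collagen and Wnt genes were narrowed, and the class of lysosomal and digestive genes and the words TGATAAG and GACGCAG were added. Selection, overlap and word search were tested on simulated data. The software was scipy 1.17.1, pandas 2.3.3 and numpy 2.4.6 under Python 3.11.15, with figures from matplotlib 3.10.9.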

Additional observations from a re-analysis of the deposited data

How the results depend on the processing

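For values over all the peaks or genes, 113 comparisons with alternative settings were made. The differences in signal and GC and the Hox ratio have a direction, and none reversed. The other values have no direction to reverse. By the spread between replicates or the counting interval, 54 were labelled as moved and 59 as the same. Counts of peaks and classes among the 59 are not all within that spread. Against 1102 peaks, an upstream limit of 500 bp gave 851, one of 2000 bp 1445, and any transcript's 5′ end 1299. No paired analysis was possible because the data form 1 group. Leaving out each replicate in turn, by using the other's own list, gave 564 to 645 peaks, 3.86% to 4.33% of genes marked, a signal difference of 4.78 to 8.56 between promoter and other autosomal peaks, one of 2.14 to 4.86 between divergent and one-gene peaks, a median distance of 205 to 206 bp, a GC difference of 6.11 to 6.11 points between summits and flanks, and a ratio of 1.15 to 1.17 for the 4-word posterior Hox set at summits over flanks. The share in both own lists cannot be had with a replicate left out.

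With peaks at or above the median signal alone there were 585 peaks, 68.0% in both own lists, 4.19% of genes, a divergent difference of 1.74, a distance of 207 bp, a GC difference of 6.49 and a Hox ratio of 1.18. An upstream limit of 500 bp gave 15.6% divergent, 5.52% of genes, and 5.79, 143 bp and 6.02 for divergent difference, distance and GC. A limit of 2000 bp gave 26.6% divergent, 10.2% of genes, 11.9, 323 bp, 6.54 and a Hox ratio of 1.04. Any transcript's 5′ end gave 8.26% of genes, 13.8, 205 bp, 6.56 and 1.02. Overlapping peaks counted once gave signal differences of 14.5 for promoter and 12.8 for divergent peaks, 203 bp, 6.43 and 1.09. The conservative list gave 213 bp and 6.33, no tRNA limit 206 bp and 6.45, and a tRNA limit of 1000 bp 6.35. Windows of 25 and 100 bp to both sides gave GC differences of 6.81 and 4.82 and Hox ratios of 1.12 and 1.02. Chosen after seeing the data, leaving out signals under 50 gave 12.3, 203 bp and 6.44, and windows of 35 to 45% GC a Hox ratio of 1.41. The cause of these moves was not tested. The spread between replicates was small for distance and GC, so small moves count there. Between 26 and 31 gene classes were above the share of all genes, but not the same ones. Of the 28 above it in the values reported, 20 were above it in all 11 alternatives run on classes. The other 8 were below it in some: histones, proteasome, Wnt and Vps genes in 1, P granule and Argonaute genes in 3, GATA factors in 4 and kinesins in 5. Of the 17 classes not above it, 9 never were and 8 were above it in some, among them ceh and cyclin genes in 4.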
